A study of Mus musculus with 15 samples.

Results

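The genes described here are 9 members of a functional set, namely Bmper, Nog, Chrd, Chrdl1, Chrdl2, Grem1, Fst, Fstl1 and Twsg1. Their products are secreted proteins that bind bone morphogenetic proteins (BMPs) or related ligands outside the cell, or that change such binding. The members were chosen by name and not by a measured value, but with earlier results of these data known. Each has a single row among the 28876 genes of the expression table. Genes with at least 0.5 RPM (reads-per-million, scaled to all reads on genes) in at least 1 library were tested, which left 18553 genes and all 9 members. Chrdl2 reached that level only in libraries of E10 AoV, E10 UGR and E9 AoV, and the other 8 members reached it in all 15 libraries. Bmper and Chrdl2 were among the secreted candidates that the study selected from these same libraries, and the study also singled out Nog, Grem1 and Chrd from them, so the direction of these 5 members in E10 AoV is not independent evidence.

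The tissue came from C57BL/6 mouse embryos with no transgene and no treatment, from the aorta-gonad-mesonephros (AGM) region, where hematopoietic stem cells (HSCs) first arise. Embryos of E9.5 gave a dorsal (E9 AoD) and a ventral (E9 AoV) piece around the dorsal aorta, and embryos of E10.5 gave E10 AoD, E10 AoV and the urogenital ridges (E10 UGR), which hold the mesonephros and the gonad primordium. Each of the 5 groups has 3 libraries of total RNA, each from tissue pooled from between 15 and 34 embryos, so the spread between libraries is that between pools and not between embryos. The depth inferred from the values lay between 33.8 and 48.5 megareads per library. Because each library holds whole dissected tissue, fewer cells of a type and less RNA per cell cannot be told apart.

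Endothelial markers were found in every library of all 5 groups, with a summed level of 5 genes between 249 and 565 RPM. The urogenital ridge markers, 8 genes, summed to between 667 and 742 RPM in E10 UGR and to a similar 662 to 695 RPM in E10 AoV, against 59.2 to 83.0 RPM in E10 AoD. The similar sums held the same genes in different proportions. Wt1 was a large part of both, with a mean of 226 RPM in the ventral piece against 370 RPM in the ridges. Nr5a1 (65.8 against 76.9 RPM) and Osr1 (19.5 against 15.8 RPM) differed less. The means of Gata4 (233 RPM) and Lhx9 (116 RPM) in E10 AoV were above those in E10 UGR (64.0 and 54.8 RPM), while Pax2 (5.22 RPM), Pax8 (7.73 RPM) and Cdh16 (3.03 RPM) were below (31.4, 53.5 and 41.3 RPM in E10 UGR). Notochord and floor plate markers were 5 genes that include Shh and Foxa1. They summed to between 65.4 and 180 RPM in E9 AoD, E9 AoV and E10 AoD. In E10 AoV and E10 UGR their sum was at most 3.74 RPM. In E9 AoV, Foxa1 (mean 51.5 RPM, against 4.62 RPM in E9 AoD) and Shh (42.1 against 38.6 RPM) made up most of the sum. T was lower in E9 AoV (5.64 against 15.4 RPM), and Foxa2 (10.8 against 11.1 RPM) and Noto (0.769 against 0.972 RPM) were close. In E9 AoV, gut endoderm and liver markers, 6 genes led by Afp, summed to between 541 and 756 RPM, against at most 116 RPM in any other library. These tissue differences accompany several of the results given for the members, and their part in them was not tested.

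BMPs are secreted dimers that bring together type I and type II receptors, which then phosphorylate SMAD1, SMAD5 and SMAD9. Antagonists act before that step. Noggin, gremlin and chordin hold the ligand so that it cannot reach its receptors, and proteases of the tolloid family cut chordin and free the ligand again. BMPER, the vertebrate Crossveinless-2, shares with chordin the cysteine-rich domains that bind BMPs and can dampen or enhance signalling, depending on its level and context. In the embryo BMP4 is made in the mesenchyme beneath the dorsal aorta, and BMP signalling is known to act in the formation of blood from the aorta.

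The 9 predicted proteins share a high content of cysteine, the residue that holds the binding domains of these families together. Cysteine made up 2.15% of the median annotated mouse protein, against 11.5% of the 685 residues of BMPER, 11.4% of follistatin (Fst) and 11.3% of Twsg1. Chordin-like 1 and 2 stood at 7.61% and 7.62%, Fstl1 at 6.54%, chordin at 5.06% and gremlin 1 at 4.89%. Noggin had the lowest share of the set, 4.31%, which still exceeded that of 88.7% of annotated proteins.

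Promoter sequences are shown for Bmper and Grem1, as examples of a member without and a member with the motifs searched, both of them called higher in E10 AoV against E10 AoD. Each sequence holds the 250 bases before the annotated start, 5′ to 3′ on the strand of the gene, in NCBIM37. Capitals mark GGCGCC, a GC-rich motif that SMAD complexes bind, and CAGAC, the short SMAD box, each searched on both strands. No occurrence of GGCGCC overlaps one of CAGAC in them.
Bmper, chr9:23027270-23027519, plus strand: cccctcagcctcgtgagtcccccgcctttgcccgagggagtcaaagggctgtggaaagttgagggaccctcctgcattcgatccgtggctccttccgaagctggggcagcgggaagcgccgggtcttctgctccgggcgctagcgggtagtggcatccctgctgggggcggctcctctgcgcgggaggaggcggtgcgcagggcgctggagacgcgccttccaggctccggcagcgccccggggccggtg
Grem1, chr2:113598804-113599053, minus strand: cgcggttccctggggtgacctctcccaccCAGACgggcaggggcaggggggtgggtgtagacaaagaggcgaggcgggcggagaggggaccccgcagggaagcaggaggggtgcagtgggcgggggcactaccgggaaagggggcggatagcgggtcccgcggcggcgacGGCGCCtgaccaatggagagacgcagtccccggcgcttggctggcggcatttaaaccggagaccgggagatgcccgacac

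Grem1 held GGCGCC at 80 bases and CAGAC at 221 bases before the start, and neither motif was found in this window of Bmper. Among 22732 promoters of the same length 11.5% held GGCGCC and 41.0% held CAGAC. Of the other members, Chrd held GGCGCC and Twsg1 held CAGAC. The TATA box TATAAA, searched on the strand of the gene only, was found in neither the Bmper nor the Grem1 window and in 8.38% of all promoters. The Bmper and Grem1 windows were GC-rich, at 71.6% each against a median of 54.4%, and held 24 CpG dinucleotides each against a median of 8. Chrdl1 and Chrdl2 held 4 each. Every window was taken before the start of the transcript with the longest coding sequence. For Chrdl1 (139824643 to 139824892) and Chrdl2 (107158174 to 107158423) the window lies inside the gene span. The window of Fst (115248939 to 115249188) lies partly inside it, since that gene ends at 115249159. None of these windows therefore lies wholly before the first annotated start of its gene.

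Across the design, the members did not share a single pattern. In the temporal comparison of E10 AoV with E9 AoV, which asks what changes in ventral tissue while its support of HSC development increases, 6 members rose and 1 fell (adjusted p below 0.05, limma, Benjamini-Hochberg over 18553 genes), where 46.0% of all tested genes passed in either direction. With a log2 fold change of at least 1 required as well, which is the rule for a called gene, Bmper, Nog and Chrdl2 were called, all higher, where 11.0% of tested genes were called. In the spatial comparison of E10 AoV with E10 AoD, 6 members passed, all higher in E10 AoV (35.5% of tested genes), and Bmper, Nog, Chrdl2 and Grem1 were called (10.1% of tested genes). The median log2 fold change of the 9 members was 0.49 in the first and 0.39 in the second comparison, against 0.00 and 0.02 over all tested genes. Both comparisons use the same 3 libraries of E10 AoV.

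In dorsal tissue from E9.5 to E10.5, 5 members passed (57.8% of tested genes), with Bmper, Fstl1 and Twsg1 higher and Grem1 and Fst lower, and 4 were called (12.6%), all of these but Twsg1. Between E9 AoV and E9 AoD 5 members passed (47.7%), and Grem1 and Fst were called (11.8%), both lower in E9 AoV. Against the urogenital ridges, 6 members passed in E10 AoV (29.1%) and 3 were called (7.57%), with Bmper and Nog higher and Fst lower in E10 AoV. In E10 AoD 6 passed against E10 UGR (39.2%) and 3 were called (11.3%), with Nog higher and Grem1 and Fst lower in E10 AoD. The members' median log2 fold change in these 4 comparisons was 0.01, -0.14, 0.48 and 0.08.

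**Figure D1:**
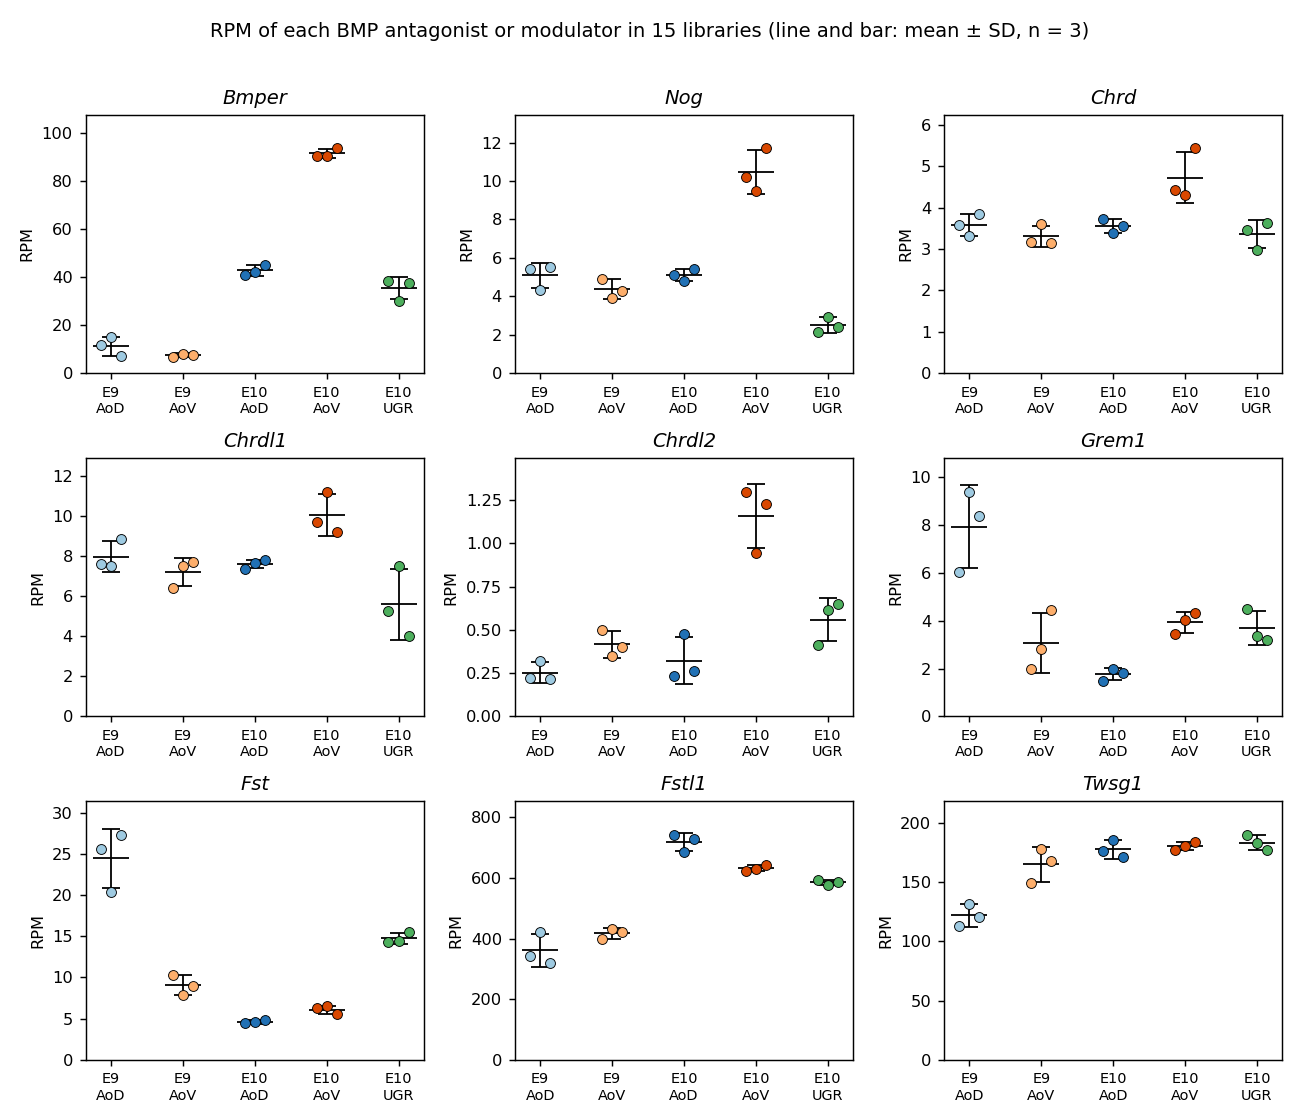
RPM (vertical axis, starting at 0, with its own scale in each panel) of the 9 genes in 3 libraries of each of the 5 groups (horizontal axis); points are libraries, and the line and bar give mean ± SD. Bmper, Nog, Chrd, Chrdl1 and Chrdl2 have their highest group mean in E10 AoV, Grem1 and Fst in E9 AoD, Fstl1 in E10 AoD and Twsg1 in E10 UGR.

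Bmper (ENSMUSG00000031963) spans bases 23027520 to 23289646 of chromosome 9 (plus strand) and is protein-coding like the other members. Its level was 11.6, 14.9 and 7.14 RPM in E9 AoD, 6.86, 8.12 and 7.68 RPM in E9 AoV, and 41.0, 42.0 and 45.1 RPM in E10 AoD. It reached 90.1, 90.5 and 93.5 RPM in E10 AoV and stood at 38.3, 30.2 and 37.5 RPM in E10 UGR. Every E10.5 library was above every E9.5 library, E10 AoV was above all others, and the groups overlapped only at E9.5. Bmper rose by a log2 fold change of 3.58 from E9 AoV to E10 AoV (adjusted p = 2e-09, SE 0.182). It also rose in dorsal tissue, by 1.98 (adjusted p = 3.68e-07), and was higher in E10 AoV than in E10 AoD by 1.10 (adjusted p = 0.00022) and than in E10 UGR by 1.38 (adjusted p = 3.76e-05). Smooth muscle and pericyte markers, 9 genes, also had their highest sum in E10 AoV, from 1280 to 1340 RPM. They summed to 897 to 1070 RPM in E10 AoD and 656 to 667 RPM in E9 AoV, but in E10 UGR to only 391 to 432 RPM. In E9 AoD their sum was lowest, from 208 to 342 RPM, while the mean of Bmper was higher there than in E9 AoV (11.2 against 7.55 RPM). Rgs5 (mean 261 RPM in E10 AoV, 32.5 RPM in E10 AoD) made up most of the gap between both E10.5 aortic pieces, and Mcam (89.3 against 110 RPM), Pdgfrb (122 against 154 RPM), Acta2 (337 against 344 RPM) and Cspg4 (33.3 against 38.3 RPM) had lower means in E10 AoV. Their part in the level of Bmper was not tested.

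At E9.5 the order of both aortic pieces was the other way round for Bmper, with 7.55 ± 0.639 RPM in E9 AoV and 11.2 ± 3.89 RPM in E9 AoD (SD, n = 3). That difference, -0.50 on the log2 scale, passed the adjusted p but not the fold threshold (95% confidence interval -0.89 to -0.11, adjusted p = 0.0334). The ranges of both groups overlapped, and E9 AoD alone ran from 7.14 to 14.9 RPM. It moved to -0.27 (adjusted p = 0.173) without E9 AoD replicate 2 and also missed the threshold without E9 AoD replicate 1 or E9 AoV replicate 1 or 3, while without E9 AoD replicate 3 it was -0.79 (adjusted p = 7.16e-05). Between E10 AoD and E10 UGR, Bmper differed by 0.28 (95% confidence interval -0.11 to 0.67, adjusted p = 0.256). That value passed without E9 AoD replicate 3, a library of neither group, at adjusted p = 0.0408.

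Chrd (ENSMUSG00000006958, chromosome 16, 20733200 to 20742457, plus strand) encodes chordin, which sequesters BMP2, BMP4 and BMP7. It varied little, with 3.59, 3.33 and 3.85 RPM in E9 AoD, 3.18, 3.61 and 3.15 RPM in E9 AoV, and 3.73, 3.40 and 3.55 RPM in E10 AoD. It stood at 4.43, 4.31 and 5.44 RPM in E10 AoV and at 3.46, 2.98 and 3.64 RPM in E10 UGR. The 3 libraries of E10 AoV were above all 12 others, whose ranges overlapped between neighbouring groups. Chrd rose from E9 AoV to E10 AoV by a log2 fold change of 0.49 (adjusted p = 0.0022, SE 0.112) and was higher in E10 AoV than in E10 AoD by 0.39 (adjusted p = 0.0127), a difference that fell to 0.29 (adjusted p = 0.07) without E10 AoV replicate 3. Its exons overlap by 154 bases those of Thpo on the other strand. The library kit is not stated to keep strand, so reads there cannot be told apart. Thpo itself stood between 0.239 and 1.0 RPM in the group means and was highest in E9 AoV, where Chrd was lowest.

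Chrdl1 (ENSMUSG00000031283, chromosome X, 139720217 to 139828805, minus strand), a chordin-like antagonist, ranged from 9.20 to 11.2 RPM in E10 AoV and from 6.40 to 8.83 RPM in the other 3 aortic groups. In E10 UGR it was uneven, at 5.24, 7.50 and 4.0 RPM. E10 AoV lay above every other library of Chrdl1, and E10 UGR overlapped E9 AoV. The increase from E9 AoV to E10 AoV was a log2 fold change of 0.47 (adjusted p = 0.0296, SE 0.165), which missed the threshold without E9 AoV replicate 1 (0.39, adjusted p = 0.103), without E10 AoV replicate 1 (0.50, adjusted p = 0.0551) and without E10 AoV replicate 2 (0.39, adjusted p = 0.115). Against E10 AoD the difference was 0.39 (95% confidence interval 0.04 to 0.75, adjusted p = 0.0802). It passed without E10 UGR replicate 2 (adjusted p = 0.0165) or 3 (adjusted p = 0.0265), which belong to neither group, since all groups share the estimate of spread. Against E10 UGR Chrdl1 was higher in E10 AoV by 0.88 (adjusted p = 0.000899), and without E10 UGR replicate 2 it was called, at 1.11. Its excess of 0.48 in E10 AoD over E10 UGR (adjusted p = 0.0306) was lost without any 1 of these 6 libraries other than E10 UGR replicate 2, with the weakest value, 0.27 (adjusted p = 0.164), without E10 UGR replicate 3.

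Chrdl2 (ENSMUSG00000030732, chromosome 7, 107154914 to 107183238, plus strand), the other chordin-like gene, was the member with the fewest reads. It had 0.221, 0.322 and 0.214 RPM in E9 AoD, 0.501, 0.348 and 0.404 RPM in E9 AoV, and 0.231, 0.477 and 0.260 RPM in E10 AoD, worth between 9 and 22 reads. In E10 AoV it had 1.30, 0.946 and 1.23 RPM, worth between 37 and 53 reads, and in E10 UGR 0.415, 0.617 and 0.648 RPM. The E10 AoV libraries lay above all 12 others, and neighbouring groups among those overlapped. Chrdl2 was called in E10 AoV, above E9 AoV by a log2 fold change of 1.28 (adjusted p = 0.000418, SE 0.234), and above E10 AoD by 1.61 (adjusted p = 6.48e-05). At such levels the pseudocount sets the size of the fold, and with 1 RPM in place of 0.1 RPM these values were 0.60 and 0.71. Against E10 UGR the difference of 0.94 (adjusted p = 0.00695) stayed under the fold threshold, although it was called without E10 AoV replicate 2 (1.07), E10 UGR replicate 2 (1.01) or E10 UGR replicate 3 (1.04). The lower level in E10 AoD than in E10 UGR (-0.67, adjusted p = 0.0341) was lost without E10 AoD replicate 1 or 3 and without E10 UGR replicate 2 or 3, the weakest value being -0.51 (adjusted p = 0.14).

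Nog (ENSMUSG00000048616, chromosome 11, 89161952 to 89163873, minus strand) encodes noggin, a cystine-knot antagonist that the notochord and the node are known to make. It had 5.41, 4.35 and 5.54 RPM in E9 AoD, 4.92, 3.92 and 4.30 RPM in E9 AoV, and 5.12, 4.79 and 5.42 RPM in E10 AoD. In E10 AoV it reached 10.2, 9.46 and 11.7 RPM, and in E10 UGR it had 2.13, 2.94 and 2.42 RPM. The first 3 groups overlapped, while E10 AoV lay above them and E10 UGR below. The gain from E9 AoV to E10 AoV was a log2 fold change of 1.24 (adjusted p = 2.68e-06, SE 0.132), while E10 AoD and E9 AoD differed by 0.01 (95% confidence interval -0.27 to 0.29, adjusted p = 0.959).

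Nog was higher in E10 AoV than in E10 AoD by 1.01 (adjusted p = 2.27e-05) and than in E10 UGR by 2.03 (adjusted p = 3.95e-08). The first of these sat on the fold threshold and was not called without E10 AoD replicate 2 (0.97) or E10 AoV replicate 3 (0.93), with quantile normalization (0.95), median-of-ratios scaling (0.99) or sample quality weights (0.97), or with a pseudocount of 0.5 RPM (0.96) or 1 RPM (0.90), with the adjusted p below 0.05 in each. The same held for the difference of 1.01 between E10 AoD and E10 UGR, which was 0.97 without E10 AoD replicate 3, 0.91 without E10 UGR replicate 1 and 1.0 without E10 UGR replicate 3. Shh, which the notochord and floor plate express, had a mean of 117 RPM in E10 AoD and 1.70 RPM in E10 AoV. In E10 UGR, where Nog was lowest, Shh had a mean of 1.13 RPM. The part of notochord and floor plate in the level of Nog was not tested.

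Grem1 (ENSMUSG00000074934, chromosome 2, 113586321 to 113598803, minus strand) encodes gremlin 1, another cystine-knot antagonist, known from the limb bud and the metanephric kidney. Its levels were 6.02, 9.40 and 8.36 RPM in E9 AoD, 1.98, 2.83 and 4.44 RPM in E9 AoV, and 1.49, 1.98 and 1.82 RPM in E10 AoD. They were 3.45, 4.04 and 4.31 RPM in E10 AoV and 4.50, 3.37 and 3.21 RPM in E10 UGR. Every E9 AoD library was above every other, the E10 AoV, E10 UGR and E9 AoV ranges overlapped, and E9 AoV met E10 AoD at 1.98 RPM. In dorsal tissue Grem1 fell by 2.09 between the stages, on the log2 scale, (adjusted p = 3.29e-06, SE 0.239). In ventral tissue its change of 0.41 did not pass (95% confidence interval -0.10 to 0.92, adjusted p = 0.179), although it did without E9 AoV replicate 3 (0.70, adjusted p = 0.0178), and with sample quality weights it turned to -0.10 (adjusted p = 0.618).

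The dorsal-ventral order of Grem1 therefore differed between the stages. At E9.5 it was lower in E9 AoV than in E9 AoD, by a log2 value of -1.38 (adjusted p = 0.000232), and at E10.5 it was higher in E10 AoV than in E10 AoD, by 1.12 (adjusted p = 0.00184). Both values kept their sign and an adjusted p below 0.05 under all alternatives but the test against the fold threshold itself (treat), and neither call held under all of them. The E9.5 value was -0.94 (adjusted p = 0.00373) with sample quality weights, and the E10.5 value was 0.97 and 0.84 with pseudocounts of 0.5 and 1 RPM. Against E10 UGR the value of Grem1 was -1.02 in E10 AoD (adjusted p = 0.00317), which was not called without E10 AoD replicate 1 (-0.91) or E10 UGR replicate 1 (-0.87). E10 AoV and E10 UGR differed by 0.10 (95% confidence interval -0.41 to 0.61, adjusted p = 0.806).

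Fst (ENSMUSG00000021765, chromosome 13, 115242470 to 115249159, minus strand) encodes follistatin, which binds activins with high affinity and BMPs more weakly. It had 25.6, 20.4 and 27.3 RPM in E9 AoD, 10.3, 7.84 and 8.98 RPM in E9 AoV, and 4.43, 4.54 and 4.85 RPM in E10 AoD. It had 6.25, 6.47 and 5.54 RPM in E10 AoV and 14.3, 14.4 and 15.5 RPM in E10 UGR. No 2 groups overlapped for Fst, and the order ran from E9 AoD through E10 UGR, E9 AoV and E10 AoV down to E10 AoD. Between the stages it fell by 2.37 on the log2 scale in dorsal tissue (adjusted p = 8.44e-10, SE 0.113) and by 0.56 in ventral tissue (adjusted p = 0.000936).

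Like Grem1, Fst was lower in E9 AoV than in E9 AoD (-1.42, adjusted p = 1.13e-07) and higher in E10 AoV than in E10 AoD (0.39, adjusted p = 0.0132), the latter lost without E10 AoV replicate 2 (0.35, adjusted p = 0.0581). Both E10.5 aortic pieces were below E10 UGR, at log2 fold changes of -1.26 in E10 AoV (adjusted p = 7.93e-07) and -1.66 in E10 AoD (adjusted p = 2.21e-08). Neural tube markers, 6 genes, also had their highest summed level in E9 AoD, from 153 to 349 RPM, against at most 71.3 RPM in any other library, and somite markers, 7 genes, summed to between 431 and 474 RPM in E9 AoD and between 69.9 and 89.8 RPM in E9 AoV. Somite markers were higher still in E10 AoD, from 625 to 789 RPM, where Fst and Grem1 were lowest. Neural tube markers summed to between 39.7 and 71.3 RPM in E10 AoD. In E10 UGR, where Fst had a mean of 14.7 RPM, they summed to only 5.48 to 7.34 RPM. The part of these tissues in the levels of Fst and Grem1 was not tested.

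Fstl1 (ENSMUSG00000022816, chromosome 16, 37776959 to 37836600, plus strand), a follistatin-like glycoprotein of mesenchyme that binds BMP4, was the most abundant member. It had 342, 423 and 320 RPM in E9 AoD, and 397, 433 and 423 RPM in E9 AoV. At E10.5 it had 742, 685 and 729 RPM in E10 AoD, 624, 629 and 644 RPM in E10 AoV, and 592, 578 and 585 RPM in E10 UGR. All 9 E10.5 libraries were above all 6 E9.5 libraries, and the 3 groups of E10.5 did not overlap each other. Fstl1 rose by a log2 fold change of 1.0 in dorsal tissue (adjusted p = 5.41e-08, SE 0.0759) and 0.60 in ventral tissue (adjusted p = 1.44e-05). The first value lay on the fold threshold and was not called without E9 AoD replicate 1 (0.96) or 3 (0.92) or without E10 AoD replicate 1 (0.98) or 3 (0.99).

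For Fstl1 the difference between E10 AoV and E10 AoD was -0.18 (95% confidence interval -0.35 to -0.02, adjusted p = 0.0744), and it passed without E9 AoD replicate 2 (adjusted p = 0.00533) or 3 (adjusted p = 0.0364). The E9.5 difference of 0.22 in favour of E9 AoV (adjusted p = 0.0287) was lost without E9 AoD replicate 1 (0.18, adjusted p = 0.0991) or 3 (0.13, adjusted p = 0.152) and without E9 AoV replicate 2 (0.19, adjusted p = 0.0925) or 3 (0.21, adjusted p = 0.0755), and was 0.34 (adjusted p = 9.15e-05) without E9 AoD replicate 2. E10 AoD exceeded E10 UGR in Fstl1 by 0.30 (adjusted p = 0.00583).

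Twsg1 (ENSMUSG00000024098, chromosome 17, 66272406 to 66300527, minus strand) encodes twisted gastrulation, which joins BMP and chordin in a complex and can either stabilise it or help tolloid proteases cut it. It had 113, 132 and 121 RPM in E9 AoD, and 149, 178 and 168 RPM in E9 AoV. At E10.5 it had 176, 186 and 171 RPM in E10 AoD, 177, 181 and 184 RPM in E10 AoV, and 190, 183 and 177 RPM in E10 UGR. Only E9 AoD stood apart, below the 12 other libraries, whose ranges overlapped. Twsg1 rose in dorsal tissue by a log2 fold change of 0.54 (adjusted p = 5.29e-06, SE 0.0651) and was higher in E9 AoV than in E9 AoD by 0.43 (adjusted p = 6.48e-05). In the ventral comparison it changed by 0.13 (95% confidence interval 0.00 to 0.27, adjusted p = 0.107), a value that reached 0.19 (adjusted p = 0.032) without E9 AoV replicate 2. E10 AoV and E10 AoD differed by 0.02 (95% confidence interval -0.11 to 0.16, adjusted p = 0.808).

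**Figure D2:**
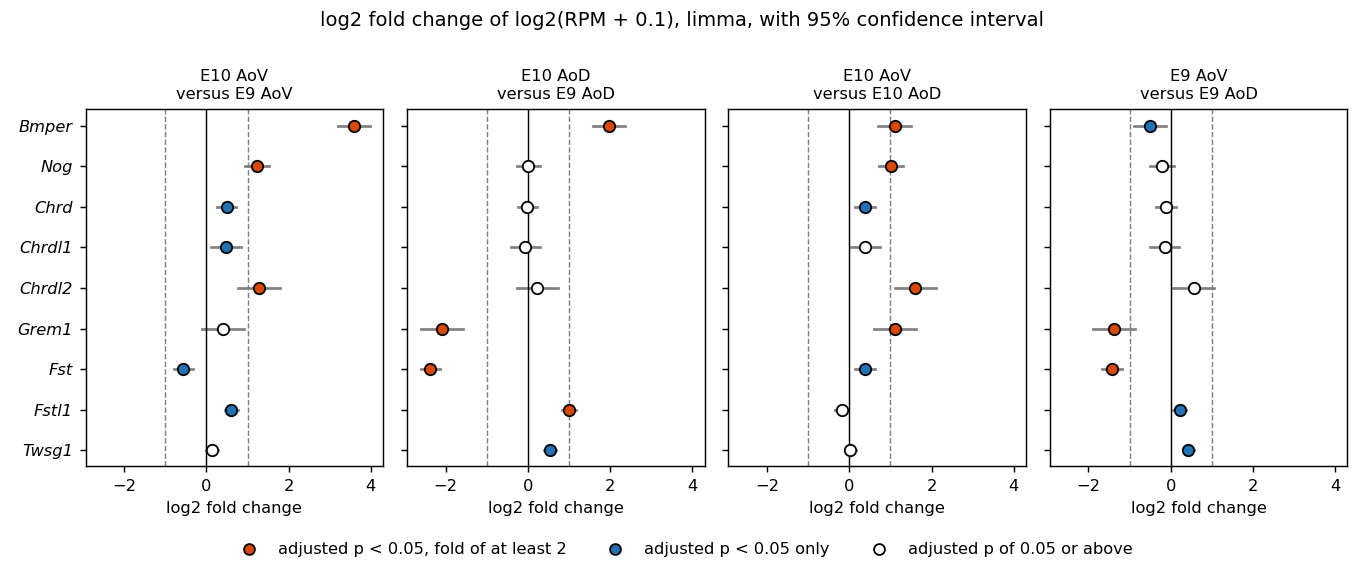
log2 fold change (horizontal axis) of each member (vertical axis) in 4 comparisons, as points with 95% confidence intervals; orange marks called members, blue those that passed the adjusted p alone and white those that did not pass, and dashed lines mark a log2 fold change of 1 in either direction. Bmper has the largest value, 3.58 in E10 AoV versus E9 AoV, and Grem1 and Fst lie to the left of -1 in both comparisons with E9 AoD.

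Whether a member changed with stage differently in ventral and dorsal tissue was tested as an interaction, the ventral change minus the dorsal change. By this test 8 members differed (28.1% of tested genes) and 5 passed the fold threshold as well (11.0%), with a median over the members of 1.05 against 0.01 over all tested genes. The value was 2.50 for Grem1 (adjusted p = 6.13e-05, SE 0.338), 1.81 for Fst (adjusted p = 1.17e-06), 1.60 for Bmper (adjusted p = 0.000276) and 1.23 for Nog (adjusted p = 0.000177). These positive values arose in different ways. Bmper rose in both tissues and more in ventral, Nog rose in ventral tissue, Grem1 fell in dorsal tissue, and Fst fell in both and more in dorsal. Fstl1 (-0.40, adjusted p = 0.0113) and Twsg1 (-0.41, adjusted p = 0.00364) had negative values, with the larger increase in dorsal tissue.

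The interaction of Chrdl2 was 1.05 (adjusted p = 0.0278), and it missed the threshold of adjusted p without any of 7 libraries, the lowest value being 0.90 (adjusted p = 0.0721) without E10 AoD replicate 1. For Chrd it was 0.51 (adjusted p = 0.0269), lost without any of 5 libraries, the lowest value being 0.40 (adjusted p = 0.0738) without E10 AoV replicate 3. Chrdl1, at 0.54 (95% confidence interval 0.04 to 1.04, adjusted p = 0.106), did not pass, except without E10 UGR replicate 2 (adjusted p = 0.0248) or 3 (adjusted p = 0.0383).

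**Figure D3:**
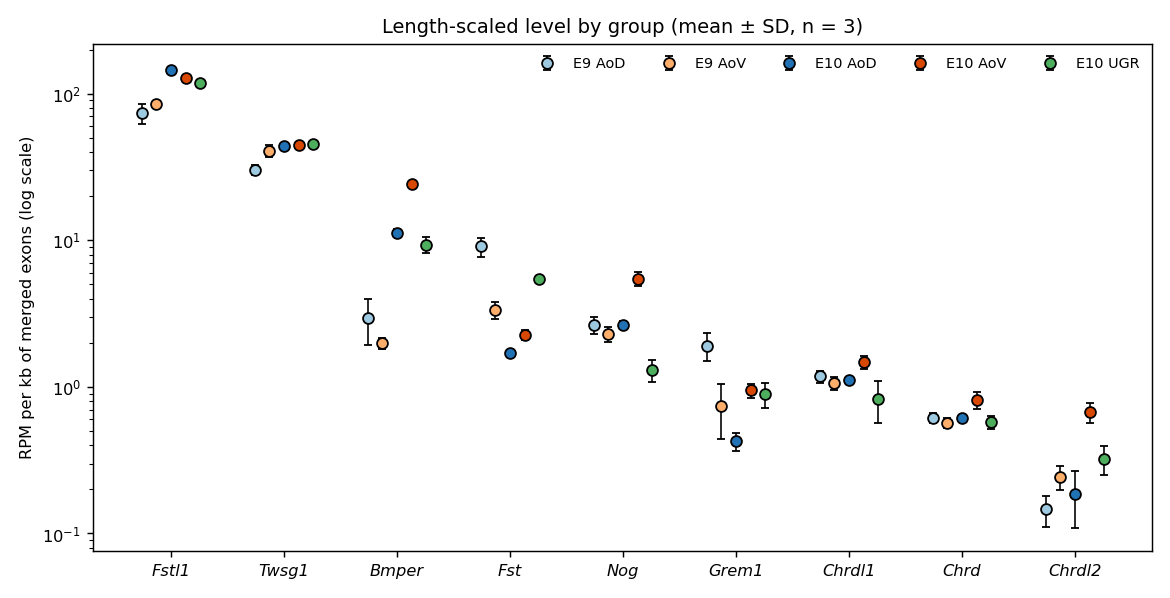
Level of each member (horizontal axis) in RPM per kb of merged exons (vertical axis, log scale), with 1 point per group for the mean and bars for SD over 3 libraries. Fstl1 and Twsg1 are the highest in all 5 groups, and Bmper moves from 1.99 in E9 AoV to 24.1 in E10 AoV.

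Levels can be compared between genes only per length, so RPM was divided by the merged exon length of each gene in kilobases. On that scale Fstl1 ranked first of the 9 and Twsg1 second in all 5 groups, with 129 ± 2.12 and 44.7 ± 0.868 RPM per kb in E10 AoV (SD, n = 3). At E9.5 Fst had rank 3, at 9.09 ± 1.34 RPM per kb in E9 AoD and 3.36 ± 0.458 in E9 AoV, and Bmper had ranks 4 and 5. At E10.5 Bmper had rank 3 in all 3 groups, with 24.1 ± 0.490 RPM per kb in E10 AoV, 11.3 ± 0.564 in E10 AoD and 9.32 ± 1.18 in the urogenital ridges. Nog followed in E10 AoV with 5.44 ± 0.594 RPM per kb, and Chrdl2 was last in all groups, with 0.671 ± 0.108 in E10 AoV.

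The summed level of Bmper, Nog, Chrd, Chrdl1, Chrdl2 and Grem1, the members of the chordin and cystine-knot families, was 6.89 ± 0.321 RPM per kb in E9 AoV and 33.4 ± 1.17 in E10 AoV. Dorsal tissue went from 9.46 ± 0.762 to 16.3 ± 0.710, and E10 UGR stood at 13.2 ± 0.844. Fst is not in that sum, and with Fst added the dorsal level was 18.6 ± 0.577 at E9.5 and 18.0 ± 0.791 at E10.5, while the ventral level was 10.3 ± 0.477 and 35.7 ± 0.987. Of the sum without Fst, Bmper made up 28.9% ± 2.29 in E9 AoV and 30.9% ± 8.68 in E9 AoD. At E10.5 its share was 72.1% ± 1.08, 69.2% ± 0.434 and 70.2% ± 4.68 in E10 AoV, E10 AoD and E10 UGR. In each E10.5 library, therefore, Bmper had more RNA per length than the other 5 together, which it had in no E9.5 library. Bmp4, the ligand, stood at 30.5 ± 1.65 RPM per kb in E9 AoV and 40.9 ± 2.20 in E10 AoV, and at 12.3 ± 3.49 and 12.8 ± 1.26 in E9 AoD and E10 AoD. The ratio of Bmper to Bmp4 on this scale was 0.0653 ± 0.00318 in E9 AoV, 0.590 ± 0.0194 in E10 AoV, 0.238 ± 0.0221 in E9 AoD and 0.887 ± 0.0687 in E10 AoD. It was 0.398 ± 0.0346 in E10 UGR. These sums and ratios are descriptions of RNA and were not tested.

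**Figure D4:**
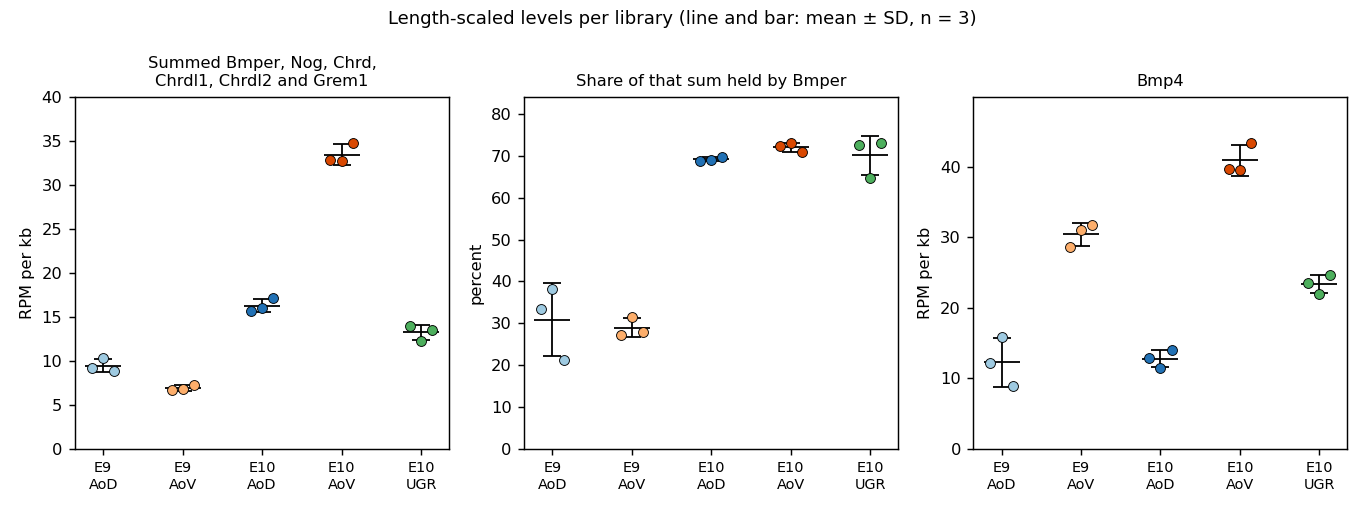
Summed length-scaled level of Bmper, Nog, Chrd, Chrdl1, Chrdl2 and Grem1 in RPM per kb, the percent of that sum held by Bmper, and Bmp4 in RPM per kb (vertical axes, starting at 0) in the 3 libraries of each group (horizontal axis), with mean ± SD. The sum is highest in the E10 AoV libraries, from 32.7 to 34.8, and the share of Bmper is at least 64.8% in every E10.5 library and at most 38.1% in every E9.5 library.

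Of 14 other extracellular binders and proteases of the pathway, 13 were tested. From E9 AoV to E10 AoV 6 of them rose and 5 fell, with a median log2 fold change of 0.35, where 46.0% of all tested genes passed and their median was 0.00. In E10 AoV against E10 AoD 4 were higher and 3 lower, with a median of 0.29, beside 35.5% and 0.02 over all tested genes. Kcp, a chordin-like protein known to enhance BMP signalling, stood at 40.2 ± 3.04 RPM in E10 AoV and 9.75 ± 1.22 in E10 AoD, which differed by 2.04 (adjusted p = 6.8e-07). Cer1, a cerberus-family antagonist, fell from 0.815 ± 0.654 RPM in E9 AoV (adjusted p = 0.000115) to 0 in all 3 libraries of E10 AoV, which by counting error alone allows up to 0.0777 RPM. Sostdc1, an antagonist of BMPs and WNTs, was lower in E10 AoV, both against E9 AoV (-1.29, adjusted p = 7.6e-05) and against E10 AoD (-1.86, adjusted p = 2.38e-06). Nbl1, of the same family as cerberus, was higher in E10 AoV than in E9 AoV (1.14, adjusted p = 2.89e-06) and lower than in E10 AoD (-1.67, adjusted p = 6.38e-08). Tll2, a tolloid protease, fell between E9 AoV and E10 AoV by 1.46 (adjusted p = 0.00191).

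Of 13 ligands and intracellular or membrane inhibitors, all tested, 9 rose and 3 fell from E9 AoV to E10 AoV (median log2 fold change 0.69), and 9 were higher and 2 lower in E10 AoV than in E10 AoD (median 0.96), beside the same shares and medians over all tested genes. Inhbb, an activin subunit whose product follistatin binds, increased by 4.95 over the stages in ventral tissue (adjusted p = 9.45e-09) and was above E10 AoD by 3.99 (adjusted p = 8.15e-08). Gdf6, a BMP-type ligand, was higher in E10 AoV than in E10 AoD by 4.32 (adjusted p = 2.9e-10). Bmp4 was higher there by 1.68 (adjusted p = 3.05e-07) and Bambi, a membrane pseudoreceptor, by 1.58 (adjusted p = 3.23e-08), while Bmp2 was lower by 1.57 (log2 fold change -1.57, adjusted p = 1.21e-07). Gdf3 reached the filter on low values in E10 AoV alone, at 0.772 ± 0.221 RPM, against at most 0.296 RPM in any other library. Of both lists, Kcp, Fstl3, Bmp4, Bmp5, Bmp6, Inhba, Inhbb, Gdf3, Smad6 and Smad7 were among the genes that the study named from these libraries. Their direction in E10 AoV is therefore not independent evidence. The same holds for the counts and medians of lists that contain them.

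The genes whose pattern was most like that of a member were sought by Pearson's r of log2(RPM + 0.1) over the 15 libraries, which fall into 5 groups, so that r mostly follows the group means. For Bmper these were Tob1 (r 0.975), Cux1 (r 0.966) and Limk1 (r 0.965), and for Fst they were Ccdc88c (r 0.978), Naa40 (r 0.974) and Plch1 (r 0.964). For Nog they were Tcf25 (r 0.904), Gpr85 (r 0.898) and Ddc (r 0.896), and for Grem1 they included Me2 (r 0.940) and Clip1 (r 0.902). With Spearman's rho in place of r none of the 3 genes named for Bmper and Nog stayed among the first 3, and 1 stayed for Fst.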

How the data were processed

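RNA was sequenced from 15 libraries in 5 groups of 3, grouped by the tissue and stage in the labels. Per the methods, the authors made TruSeq libraries, read them as 50-base single ends, aligned them to NCBI37/mm9 with TopHat and Bowtie 0.12.3 and counted them over Ensembl genes in GeneProf, sharing multi-mapped reads in proportion to unique ones. The deposited values are RPM, which the authors rounded to 3 significant digits. The deposited table also holds the authors' DESeq log2 fold changes and adjusted p-values for 6 comparisons, which were not used.

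The members and lists were chosen with earlier results of these data known. Named genes are the 9 members, the called genes of both pathway lists in E10 AoV versus E9 AoV or E10 AoD (at most 6 of each list), and for each member the 3 genes with the highest Pearson r; the full 3 are printed for Bmper, Fst and Nog. Some items are not reported here. Beside the marker lists in the results, blood markers summed to between 1080 and 5030 RPM and coelomic and subaortic mesenchyme markers to between 224 and 1110 RPM. Depth came from the RPM step of a single read. Only 58.1% to 60.5% of low values were whole multiples, so no counts were recovered, and such depths carry counting error only.

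Genes that reached 0.5 RPM in any library were tested. The fit, made on log2(RPM + 0.1) by limma (version 3.58.1, R version 4.3.3), had a mean for each group and an intensity trend, and its code was tested on simulated data. This scale understates the changes of low genes. A gene was called at Benjamini-Hochberg adjusted p below 0.05 and a log2 fold change of at least 1 in size. Samples of the same replicate number had deviations that correlated between -0.138 and 0.452 in 30 pairs of libraries. All 3 pairs exceeded 0.1 only between E9 AoD and E9 AoV (0.452, 0.347 and 0.190). Among the E10.5 groups every pair was positive, from 0.0416 to 0.339. For each library, the best-correlated library of another group had the same number in 35 of 60 combinations. Whether same-numbered libraries share an experiment is not stated. Positions and promoters come from the NCBIM37 genome and its GENCODE annotation, in which 95.3% of the IDs were found, and lengths are merged exons. Protein shares come from the longest coding sequence per gene. Alternatives covered the pseudocount, filter, scaling, replicate block, samples in the fit, moderation, sample weights, fold threshold and each library left out.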

Additional observations from a re-analysis of the deposited data

Results flagged for a closer look

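Between E9.5 and E10.5 the change differed between ventral and dorsal tissue for 8 of the 9 members, by the limma test of the interaction. The threshold was an adjusted p below 0.05, which 28.1% of all tested genes passed. The ventral change minus the dorsal change was 1.60 for Bmper, 1.23 for Nog, 0.51 for Chrd, 1.05 for Chrdl2, 2.50 for Grem1 and 1.81 for Fst on the log2 scale. It was -0.40 for Fstl1 and -0.41 for Twsg1. Chrd and Chrdl2 missed the threshold of adjusted p in several of the fits that left out 1 library. For Grem1 the dorsal-ventral order itself was opposite at both stages, at -1.38 in E9.5 and 1.12 in E10.5. With groups of 3 libraries, no single library was tested for standing apart from its group.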

How the results depend on the processing

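The number of members called depended most on the fold threshold. Without it 7 members passed in E10 AoV versus E9 AoV, 5 in E9 AoV versus E9 AoD, 6 in E10 AoV versus E10 UGR, 6 in E10 AoD versus E10 UGR and 8 in the interaction. Under treat with a threshold of 1, the counts were 1 in E10 AoV versus E9 AoV, 0 in E10 AoV versus E10 AoD, where 6 members had an adjusted p below 0.05 in limma without treat, 1 in E9 AoV versus E9 AoD, 1 in E10 AoV versus E10 UGR, 1 in E10 AoD versus E10 UGR and 2 in the interaction. A pseudocount of 1 RPM left 1 member called in E10 AoV versus E10 AoD and 1 in E10 AoD versus E10 UGR, and 0.5 RPM left 2 and 1. There, the called share of all tested genes was 5.5% and 6.16% with 1 RPM, and 6.96% and 8% with 0.5 RPM. As reported these shares were 10.1% and 11.3%. Under treat the share was 2.88% to 5.64% in the comparisons listed, and without the fold threshold it was 28.1% to 47.7%. Sample quality weights left 1 in E9 AoV versus E9 AoD, where 11.5% of all tested genes were called. The cause was not tested. Leaving out single libraries gave 3 to 5 members in E10 AoV versus E10 UGR, with 5 without E10 UGR replicate 2, and 1 to 3 in E10 AoD versus E10 UGR, with 1 without E10 UGR replicate 1. The fit with the replicate block gave 3, 4, 4, 2, 3, 3 and 5 members called in the comparisons in the order E10 AoV with E9 AoV, E10 AoV with E10 AoD, E10 AoD with E9 AoD, E9 AoV with E9 AoD, E10 AoV with E10 UGR, E10 AoD with E10 UGR and the interaction, as without it. A block fitted on both E9.5 groups alone, added after seeing the data, gave 2 in E9 AoV versus E9 AoD.

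No value that changed sign was called, in limma as reported or under the alternative. In E10 AoD versus E9 AoD, Nog moved to -0.15 with quantile normalization and 0.00 with median-of-ratios scaling and lay between -0.10 and 0.07 over the fits that left out 1 library, Chrd moved to 0.02 with sample weights and lay between -0.06 and 0.04, Chrdl1 between -0.11 and 0.01 and Chrdl2, at 0.23 in limma as reported, between -0.02 and 0.38. Grem1 in E10 AoV versus E9 AoV moved from 0.41 to -0.10 with sample weights. Twsg1 lay between 0.00 and 0.06 in E10 AoV versus E10 AoD, moved to 0.01 with median-of-ratios scaling in E10 AoV and in E10 AoD versus E10 UGR, and lay between -0.05 and 0.01 in the former over the fits that left out 1 library. Length by the longest transcript raised the E10 AoV level per kb of Chrdl1 from 1.48 to 2.45 and of Fstl1 from 129 to 167. Depth limits Chrdl2 most, with as few as 9 reads in a library.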

Other observations

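The other 5 members had these nearest genes by Pearson's r over the 15 libraries. Tspan7 (r 0.900) came first for Chrd, E130309F12Rik (r 0.869) for Chrdl1, Ankrd34a (r 0.944) for Chrdl2, Riok3 (r 0.989) for Fstl1 and Stx7 (r 0.977) for Twsg1.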
